A study of Drosophila melanogaster with 3 samples.

Results

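The regions described here were the strong calls of a chromatin immunoprecipitation and sequencing (ChIP-seq) experiment that lay between genes and away from start sites. The samples were whole embryos of Drosophila melanogaster, both sexes together and collected over 0 to 24 hours, from a transgenic line with a C-terminal eGFP tag on the CG10565 protein, precipitated with an antibody against GFP. There were 3 biological replicates, labelled 1, 2 and 4, which formed 1 group, and no untagged or treated group was compared. Embryos of all stages and cell types were mixed, so a strong call in a few cells and a weak one in many cannot be told apart. The authors gave a list of 30000 calls for the pool of the replicates and one of 30000 calls for each replicate. Every call has a signal value from the authors' peak caller and a summit, the position of the highest enrichment. Members were chosen by signal and position. They were the calls among the 2500 with the highest pooled signal whose summit lay outside every annotated gene and more than 500 bp from every transcription start site. This gave 322 members, 12.9% of the 2500 strongest calls. The same position rule gave 5647 calls of lower signal, called weaker intergenic calls below. The pooled list was deposited as peaks and background together. The authors list 1143 of its calls as reproducible between replicates, all among the 2500 strongest. No weaker intergenic call is therefore a reproducible peak, and many can be background rather than weak binding. How far differences from them are differences from background was not tested. Of the 322 members, 190 are also outside the list of reproducible peaks, so some of these can be background as well. The other strong calls used for comparison were 824 in introns and 1303 within 500 bp of a start site.

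The product of CG10565 has a J domain, which stimulates Hsp70 chaperones. Its human relative, DNAJC2, works at the ribosome and has also been placed on chromatin. Sequence between genes holds enhancers, which raise transcription of a gene from a distance, insulators, which limit which genes an enhancer can reach, and Polycomb response elements, which recruit repressive complexes in flies. Such elements are often found through short DNA words bound by known proteins. GAGA factor binds GA repeats, Su(Hw) and CTCF are insulator proteins, Pho recruits Polycomb complexes, and Zelda opens chromatin in the early embryo.

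The sequences below lie within 100 bp of the summit on the plus strand of dm6, read from the RefSeq copy of the assembly. The first 6 are among the 8 members with the highest signal and show what the strongest regions look like. Capitals mark any GAGA element (GAGAGA), A tract (AAAAAAAA), CTCF core (GCGCCNCCT), Su(Hw) core (TTGCATAC) or Pho core (GCCATT), and the words ACAGTG and AGTGTA that led an open scan described further on, all on either strand.
Sol1 to Cyp9f2, chr3R:12403033-12403233: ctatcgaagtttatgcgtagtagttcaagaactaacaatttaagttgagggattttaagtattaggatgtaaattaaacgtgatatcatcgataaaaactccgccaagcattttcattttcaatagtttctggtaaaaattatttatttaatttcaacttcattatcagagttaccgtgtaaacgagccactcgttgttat
lncRNA:CR45641 to lncRNA:CR45643, chr3R:16222404-16222604: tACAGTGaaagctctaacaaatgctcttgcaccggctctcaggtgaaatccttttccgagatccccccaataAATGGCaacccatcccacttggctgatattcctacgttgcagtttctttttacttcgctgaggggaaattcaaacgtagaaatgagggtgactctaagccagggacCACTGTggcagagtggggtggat
CG41562 to CG14621, chrX:22432987-22433187: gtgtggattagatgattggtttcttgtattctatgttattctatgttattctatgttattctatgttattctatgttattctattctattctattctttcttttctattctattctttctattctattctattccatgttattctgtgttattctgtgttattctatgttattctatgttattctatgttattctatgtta
COX7AL2 to CG31668, chr2L:2202322-2202522: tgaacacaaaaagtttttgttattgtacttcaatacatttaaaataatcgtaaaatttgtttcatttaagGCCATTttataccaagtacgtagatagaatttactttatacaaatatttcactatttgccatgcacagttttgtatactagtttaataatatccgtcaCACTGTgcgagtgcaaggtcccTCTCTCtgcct
RasGAP1 to CG10809, chr3L:9855901-9856101: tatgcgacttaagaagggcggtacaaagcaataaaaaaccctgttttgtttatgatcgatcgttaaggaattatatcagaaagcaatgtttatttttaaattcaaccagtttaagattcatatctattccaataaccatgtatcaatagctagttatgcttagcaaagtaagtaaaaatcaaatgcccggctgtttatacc
C15 to sp3, chr3R:21520282-21520482: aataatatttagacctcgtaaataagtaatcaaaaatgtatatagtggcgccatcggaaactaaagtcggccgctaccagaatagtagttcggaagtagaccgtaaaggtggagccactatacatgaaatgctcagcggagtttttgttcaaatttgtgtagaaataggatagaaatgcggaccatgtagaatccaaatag
The next 3 are the strongest on the arms shown with an A tract, a CTCF core and a Su(Hw) core.
CG3149 to lncRNA:CR42794, chrX:5696434-5696634: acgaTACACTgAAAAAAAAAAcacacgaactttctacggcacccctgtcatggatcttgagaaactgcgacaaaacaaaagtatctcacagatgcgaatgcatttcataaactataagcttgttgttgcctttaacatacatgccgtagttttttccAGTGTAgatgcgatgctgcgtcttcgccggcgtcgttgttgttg
jp to lncRNA:CR44149, chr2L:9567421-9567621: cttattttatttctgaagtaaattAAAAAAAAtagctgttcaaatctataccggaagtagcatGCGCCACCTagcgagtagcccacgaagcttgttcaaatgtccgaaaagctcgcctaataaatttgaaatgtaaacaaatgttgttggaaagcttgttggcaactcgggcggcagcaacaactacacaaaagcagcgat
NijA to CG43245, chr3L:10739700-10739900: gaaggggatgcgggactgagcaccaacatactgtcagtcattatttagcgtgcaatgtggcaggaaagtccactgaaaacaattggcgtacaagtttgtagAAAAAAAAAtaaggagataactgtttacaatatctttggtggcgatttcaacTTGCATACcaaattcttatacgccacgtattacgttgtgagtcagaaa

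No marked word was common to the strongest regions. The regions beside Cyp9f2, CG14621, RasGAP1 and sp3 had no marked word. The region beside CG14621 consisted of a repeated short unit and lay in an annotated transposable element, and its G and C content was 23.9%. The region beside lncRNA:CR45643 had a G and C content of 48.3%, a Pho core and 2 matches to ACAGTG. The region beside CG31668 had a GAGA element at one end, a Pho core and 1 match to ACAGTG, with a G and C content of 30.8%.

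The member with the highest signal, 498.6, lay in the narrow space between Sol1 and Cyp9f2, a cytochrome P450 gene, 1294 bp upstream of the nearest start site, that of the DNA ligase gene DNAlig3. It was call 22 of the pooled list and ranked 16, 53 and 19 in replicates 1, 2 and 4. The member between lncRNA:CR45641 and lncRNA:CR45643 followed with a signal of 477.1 and ranks of 51, 10 and 79. The third lay downstream of blw, which encodes a subunit of the mitochondrial ATP synthase, 3345 bp from the start site of the mitotic cyclin gene CycB. Its signal was 461.7 and its ranks were 46, 26 and 35. In these 3 regions every replicate ranked the call among its strongest. The region in the transposable element beside CG14621 differed, with a pooled signal of 381.6 and ranks of 95, 674 and 5.

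Other members among the 20 strongest lay beside named genes. The member between slp1 and slp2, which encode forkhead transcription factors of segmentation, had a signal of 289.4 and lay 4294 bp upstream of the start of slp2. It ranked 170, 106 and 78 in replicates 1, 2 and 4. The member next to sp3 had the homeobox gene C15 on its other side and a signal of 335.6, with ranks of 94, 54 and 109. A member 771 bp upstream of jp, the gene for junctophilin, had a signal of 266.9 and ranks of 108, 170 and 270, and it carried a CTCF core. Of the 20 strongest members, 19 had their summit inside a call among the 2500 strongest of every replicate. The exception lay between CG13321 and the Polycomb group gene Psc, with ranks of 98 and 138 in replicates 1 and 4 and no call at its summit in replicate 2.

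**Figure D1:**
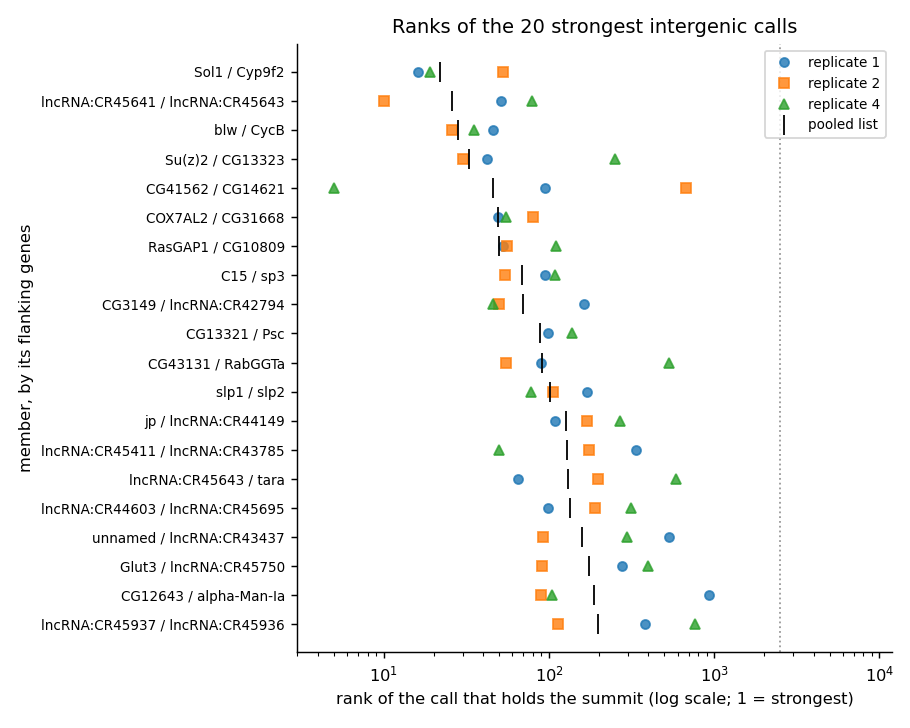
Rank of the call that holds the summit, on a log axis, for the 20 members with the highest pooled signal, named by their flanking genes. Symbols are the 3 replicate lists, the black bar is the pooled list and the dotted line is rank 2500. The point missing for CG13321 and Psc is replicate 2, which had no call there, and the widest spread is that of the region beside CG14621, with ranks of 95, 674 and 5.

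Signal chose the members, so their values are given as a description. Member signals ran from 69.2 to 498.6 with a median of 97.8, against 23.4 to 69.0 with a median of 29.2 in weaker intergenic calls. Strong intronic calls reached 834.9 and strong promoter calls 1018, with medians of 97.5 and 103.5. The last members inside the limit were near PpV, lncRNA:CR44912 and Tet, with signals of 69.34, 69.32 and 69.22. The first calls outside it were near del, CG33777 and Cdk4, with 68.99, 68.91 and 68.78, so the limit does not fall in a gap. The authors' reproducible peaks, chosen by the irreproducible discovery rate (IDR), included 132 of the 322 members, which were the 132 of highest signal. That is 41.0% of members, against 45.7% of all 2500 strong pooled calls. The call width was 370 bp in 304 members and the narrowest was 92 bp.

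All 3 replicates held the summit of 107 members within their 2500 strongest calls, which is 33.2% (95% Wilson interval 28.3 to 38.6). The share over all 2500 strong pooled calls was 33.0%, and the strong intronic and promoter calls had 30.2% and 34.7%, so by this limit on rank the share of members was near that of strong calls elsewhere. A further 111 members had this support from 2 replicates, 90 from 1 and 14 from none. With calls of any rank, 279 members (86.65%, interval 82.5 to 89.9) had a call at the summit in every replicate, against 78.3% of all 2500 strong pooled calls. Strong intronic calls had 77.2% and strong promoter calls 76.8%, so with no limit on rank the share of members was the higher one. This gap lay mainly in replicate 2, which had a call at 92.24% of members, against 84.24% of all 2500 strong pooled calls. In replicate 1 these shares were 99.38% and 98.2%, and in replicate 4 they were 95.03% and 94.64%. Replicate 1 had no call at 2 members, replicate 2 at 25 and replicate 4 at 16. The pooled list was built from these replicates, so their support is not independent of the choice. Across members, Spearman's rho of ranks was 0.50 between replicates 1 and 4 (304 members called in each), 0.36 between replicates 1 and 2 (295) and 0.35 between replicates 2 and 4 (281).

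Of the 322 members, 112 lay within 10 kb of another member and 210 lay alone. With summits up to 10 kb apart joined, the 322 members formed 255 groups, of which 210 held a single member, 32 held 2 and 13 held 3 or more. The 44 gaps between genes with 2 or more members included one with 7, between NijA, which encodes the cell adhesion protein Ninjurin A, and CG43245 on 3L. In that gap 6 summits lay within 13933 bp from 10738978 to 10752911, with signals of 70.5 to 198.3. A second group of 6, over 16015 bp from 3L 11415557 to 11431572, lay beside CG7560 and lncRNA:CR44363 with signals of 72.5 to 187.2. In each of these groups, 4 of the 6 summits had support from the 2500 strongest calls of all replicates, in places through 1 replicate call that covered neighbouring summits. On 2L, 4 members with signals of 86.5 to 258.0 formed a group, and all 4 had that support. The weakest of them lay between lncRNA:CR45695 and chinmo, which encodes a transcription factor of neuronal identity, and the other 3 between lncRNA:CR44603 and lncRNA:CR45695.

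The smaller groups named next were chosen after their values were seen. Near tara, a trithorax group gene, 3 members spanned 2571 bp with signals of 111.6 to 477.1. The one with a signal of 261.0 lay between lncRNA:CR45643 and tara, and the other 2 between lncRNA:CR45641 and lncRNA:CR45643. Between Doc2, a T-box gene of the dorsal embryo, and lncRNA:CR46451, 3 members had signals of 72.6 to 130.5. Between scyl, an inhibitor of TOR signalling, and lncRNA:CR44720, 3 members had signals of 104.1 to 122.7, and none of these had top 2500 support from every replicate. A call was absent at 1 of the scyl summits in replicate 2 and at another in replicate 4. Neighbouring calls can be parts of 1 broad region. Only a few of the members overlapped, since joining overlapping calls left 318 regions.

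The left arm of the third chromosome held 116 members, or 36.02% (interval 31.0 to 41.4), against 26.6% of the weaker intergenic calls (interval 25.5 to 27.8). It holds 24.7% of all sequence that meets the position rule. In lists built by the same rule from each replicate, which hold 287, 425 and 333 regions in replicates 1, 2 and 4, the share on 3L was 32.8%, 34.1% and 33.0%, against 27.7%, 25.5% and 27.5% of the weaker intergenic calls. The mean difference was 6.42 percentage points ± 1.96 (SD, n = 3), higher in 3 of 3 lists (exact sign-flip permutation test over replicates, two-sided, p = 0.25). With 3 replicates this test cannot give a p below 0.25, so no comparison below can pass 0.05 by it. The 3 lists also share regions, since 107 members had their summit in a top 2500 call of every replicate. Position and sequence are fixed in a shared region. Agreement between the lists, here and below, is therefore not independent support. With members up to 10 kb apart counted once, 80 of 255 groups (31.4%, interval 25.99 to 37.3) were on 3L, and 31 of the 116 members on 3L lay in groups of 3 or more. Shares on the other arms were 22.0% on 2L, 13.7% on 2R, 18.0% on 3R, 9.63% on X and 0.621% on chromosome 4, against 23.1%, 15.5%, 24.1%, 9.58% and 1.204% of weaker intergenic calls. With every member counted, only the 3L and 3R intervals did not reach the share of the weaker calls. With nearby members counted once, the 3L interval did reach the 26.6% of weaker calls, which were not grouped in this way.

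**Figure D2:**
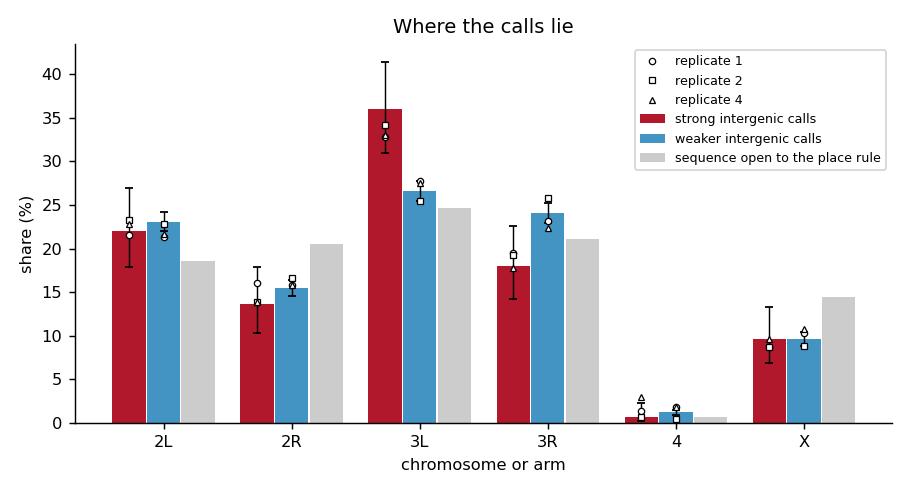
Share of calls on each chromosome or arm for the 322 members and 5647 weaker intergenic calls of the pooled list (bars, with 95% Wilson intervals), and for each replicate list under the same rule (open symbols). Grey bars give the share of sequence outside genes and more than 500 bp from start sites. On 3L all 3 replicate lists have 32.8% to 34.1% of their strong intergenic calls, above the grey bar at 24.7%.

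Members lay closer to start sites than weaker intergenic calls. The median distance from summit to nearest start site was 2879 bp, against 3443 bp in the weaker calls. In replicates 1, 2 and 4 it was 2733, 3257 and 2177 bp, against 2896, 3957 and 3185 bp. The lists differed by -624 bp ± 428 on average (SD, n = 3, shorter in 3 of 3, exact permutation p = 0.25). Between 500 and 1000 bp lay 61 members (18.9%, interval 15.04 to 23.6), against 13.2% of weaker calls, and between 5 and 10 kb lay 47 (14.6%, interval 11.2 to 18.9), against 22.2%. Between 10 and 20 kb the order was the other way, with 42 members (13.04%), against 11.2% of weaker calls. With the start-site limit at 1000 bp, the mean difference over the lists was -231 bp. The summit was upstream of the nearest start site in 60.6% of members, against 59.8% of weaker calls. Gaps between genes pointing away from each other held 25.2% of members, against 24.6% of weaker calls. The difference over replicate lists was 2.43 points ± 3.88 (SD, n = 3), higher in 2 of 3 lists (exact permutation p = 0.50).

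**Figure D3:**
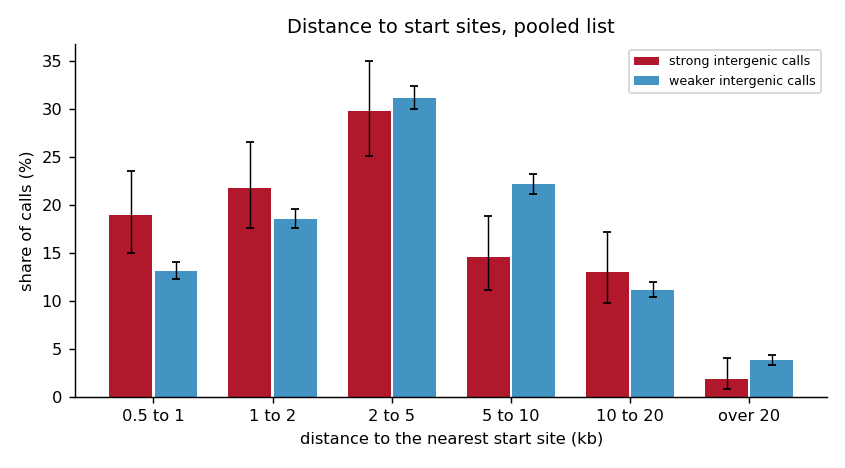
Share of calls by distance from the summit to the nearest annotated start site, for the 322 members (left bars) and 5647 weaker intergenic calls (right bars) of the pooled list, with 95% Wilson intervals. Members exceed the weaker calls between 0.5 and 1 kb, 18.9% against 13.2%, and fall below them between 5 and 10 kb, 14.6% against 22.2%.

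Strong calls at the start site of the nearest gene were also counted. They come from the same ranking by signal that chose the members, so the values here are a description. The nearest gene had a call among the 2500 strongest at its start site for 7.14% of members, against 4.71% of weaker intergenic calls. In replicates 1, 2 and 4 this share was 10.8%, 4.94% and 9.91%, against 6.86%, 3.46% and 5.15%. The mean difference was 3.40 points ± 1.70 (SD, n = 3), higher in 3 of 3 lists (exact permutation p = 0.25). With weaker calls taken only down to rank 10000 the mean difference was 1.785 points. Members lay closer to genes, as given above, and the part of that in this share was not tested.

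The flanking genes were of varied kinds. Long noncoding or antisense RNA genes flanked 163 members (50.6%, interval 45.2 to 56.0) and 45.8% of weaker intergenic calls. Protein-coding genes with no name beyond a CG number flanked 150 members (46.6%), against 48.1%. Homeobox and patterning genes flanked 19 members (5.90%, interval 3.81 to 9.03), against 4.94%, in 14 distinct gaps. After slp1 and slp2, the strongest of these were a member 6071 bp upstream of oc, a homeobox gene of head patterning (signal 151.9, ranks of 1237, 523 and 439 in replicates 1, 2 and 4), and one beside Doc2 (signal 140.6, ranks of 970, 374 and 1815). These shares lie within counting error of the weaker calls, except that the noncoding RNA share is near the edge of it.

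Transfer RNA genes, transcribed by RNA polymerase III, flanked 13 members (4.04%, interval 2.37 to 6.78), against 2.53%. The 3 strongest were 2 members between tRNA:Ile-TAT-1-2 and CG13898 (signals of 158.5 and 147.9) and one beside tRNA:Gly-GCC-1-4 (142.5). Chemoreceptor genes flanked 6 members (1.86%, against 2.46%), the strongest beside Gr89a (signal 150.5), Gr93a (131.2) and Or85b (93.3). Cytochrome P450 genes flanked 2 members, those beside Cyp9f2 and Cyp28d1 (83.5). Single members lay beside Cpr76Ba, a cuticle protein gene (196.7), mir-4981 (188.9), Obp56h, an odorant-binding protein gene (103.6), snRNA:U2:14B (99.6) and SP1029 (77.7), which the symbol rule put among the serine proteases. No member was flanked by a ribosomal protein gene of either kind, a snoRNA, 5S rRNA or histone gene, or a neuronal gene of the list used. A count of 0 of 322 allows a share of up to 0.932%, and cytosolic ribosomal protein genes flanked 0.832% of weaker calls.

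Genes of the Polycomb and trithorax groups, a list added after the strongest members had been seen, flanked 6 members (1.86%, interval 0.857 to 4.00) and 0.336% of weaker intergenic calls. Since these members prompted the list, the contrast is not a test. A gene of this list was the nearest gene for only 1 member (0.311%), against 0.142% of weaker calls. The strongest of the 6 summits lay 27427 bp from Su(z)2. Polycomb group proteins keep developmental genes silent and trithorax group proteins counter them. The 6 members lay in 5 gaps. They were one between Su(z)2 and CG13323 (signal 425.0, ranks of 42, 30 and 251 in replicates 1, 2 and 4), a pair between CG13321 and Psc (307.5 and 180.5), a pair on either side of tara (261.0 and 106.5) and one between ph-d and ph-p (212.7, ranks of 260, 783 and 132). Both members beside Psc had no call at the summit in replicate 2. The member nearest to CG10565 itself, beside lncRNA:CR43929 with a signal of 99.3, lay 210 kb away.

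Around the summit of the members, base composition dipped toward A and T between flanks with more G and C. G and C made up 33.9% of the bases within 50 bp of the summit and 44.2% of those 150 to 350 bp away, a dip of 10.3 points. In weaker intergenic calls the values were 38.3% and 41.4%, a dip of 3.20 points. In replicates 1, 2 and 4 the dip was 10.9, 4.82 and 8.03 points in the strong intergenic calls, against 4.93, -1.45 and 2.65 points in the weaker ones. Within each replicate the strong calls had the deeper dip, and across replicates the groups overlapped only at 4.82 against 4.93 points. The mean difference was 5.86 points ± 0.45 (SD, n = 3), deeper in 3 of 3 lists (exact permutation p = 0.25).

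The dip was shared with strong calls elsewhere. It was 12.1 points in strong intronic calls and 10.2 in strong promoter calls of the pooled list. Members minus intronic calls gave -1.11 points ± 0.52 (SD, n = 3), shallower in 3 of 3 lists (exact permutation p = 0.25). Members minus promoter calls gave -0.74 ± 1.38, shallower in 2 of 3 lists (exact permutation p = 0.50), and this sign turned with start-site windows of 250 bp (0.06) or 1000 bp (0.41). Within 100 bp of the summit, mean G and C content was 35.5% in members, against 38.8% in weaker intergenic calls, 34.7% in strong intronic calls and 34.4% in strong promoter calls. The replicate lists gave 35.2%, 39.5% and 34.2% in strong intergenic calls of replicates 1, 2 and 4, against 36.7%, 43.0% and 37.6% in weaker ones, a mean difference of -2.76 points ± 1.12 (SD, n = 3, lower in 3 of 3, exact permutation p = 0.25). Replicate 2 was richer in G and C in every group. Against strong intronic calls the difference was 0.30 ± 0.90 and its sign varied between lists (exact permutation p = 0.50), and against strong promoter calls it was 0.94 ± 0.75, higher in 3 of 3 lists (exact permutation p = 0.25).

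**Figure D4:**
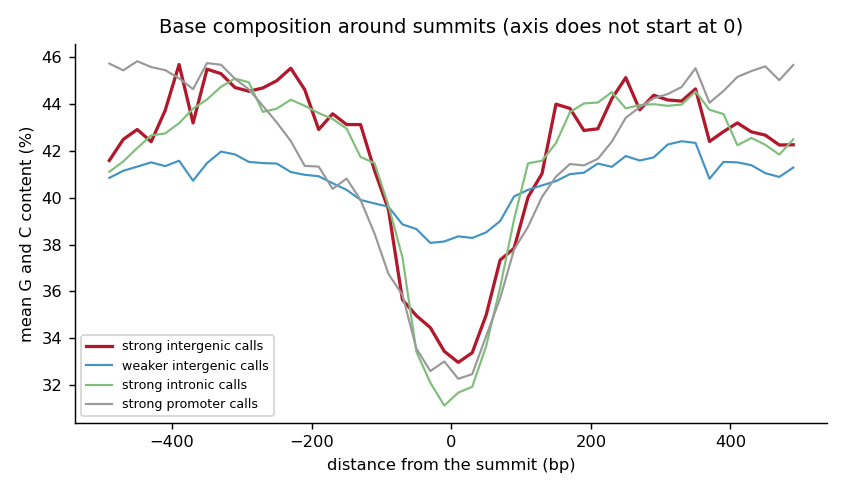
Mean G and C content in steps of 20 bp against distance from the summit, for the 322 members, 5647 weaker intergenic calls, 824 strong intronic calls and 1303 strong promoter calls of the pooled list; the vertical axis does not start at 0. The 3 strong groups all drop to between 31% and 34% at the summit, while the weaker intergenic calls stay at 38%.

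Repeated sequence was rare at members and at weaker intergenic calls alike. Over the main chromosomes, 13.96% of words of 36 bases occurred more than once. Of the 36-base words within 100 bp of the summit, 0.114% occurred more than once in the genome, against 0.334% at weaker intergenic calls. All of it came from 2 members, those nearest CG14621 (20.5%) and ed (16.3%), and the other members had 0. The mean difference over the lists was -0.17 points ± 0.11 (SD, n = 3), lower in 3 of 3 (exact permutation p = 0.25), and -0.0144 points with weaker calls taken only down to rank 10000. Only 2 members had the summit in an annotated transposable element (0.621%), against 2.43% of weaker calls.

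Of 21 known DNA words, looked for on either strand up to 100 bp from the summit, 14 differed from weaker intergenic calls in the same direction in all 3 replicate lists, 7 higher and 7 lower. The exact sign-flip test could not pass 0.05 with 3 lists, and its adjusted permutation p was 0.375 for each of the 14. GAGA elements occurred at 32 members (9.94%, interval 7.13 to 13.7), against 6.32% of weaker intergenic calls and 7.10% of all pooled calls. In replicates 1, 2 and 4 the share was 12.5%, 11.3% and 8.41%, against 6.58%, 6.09% and 6.71% of weaker calls. Strong intronic calls had 11.9%. A tracts occurred at 53 members (16.5%, interval 12.8 to 20.9), against 11.8% of weaker calls and 12.1% of all calls, and at 16.9% of strong intronic calls. The replicate lists gave 18.5%, 15.1% and 15.6%, against 13.2%, 10.05% and 13.1% of weaker calls. A tracts move with the base composition given above, and the part of that in their share was not tested.

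The CTCF and Su(Hw) cores were more frequent in members than in weaker intergenic calls, at low counts. The CTCF core occurred at 7 members (2.17%, interval 1.06 to 4.42), against 0.460% of weaker intergenic calls and 0.563% of all pooled calls. The lists of replicates 1, 2 and 4 had 2.09%, 2.35% and 1.502%, against 0.335%, 0.492% and 0.390%. The Su(Hw) core occurred at 10 members (3.11%, interval 1.70 to 5.62), against 1.43% of weaker calls and 1.38% of all calls, and the lists had 2.79%, 3.06% and 2.70%, against 1.55%, 1.43% and 1.19%. For each word, the 3 values of the strong calls all lay above the 3 values of the weaker ones. The lists share regions, so the same few sites can be counted in more than 1 list. Strong promoter calls had 1.07% with a CTCF core and 1.30% with a Su(Hw) core, and strong intronic calls 0.607% and 1.94%. In replicate 2 the Su(Hw) core was at 3.06% of strong intergenic calls and 2.88% of strong intronic calls. The third insulator word, the BEAF-32 core, occurred at 19.9% of members, 19.1% of weaker intergenic calls and 22.8% of all pooled calls, against 32.6% of strong promoter calls.

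Words known from promoters were less frequent in members than in strong promoter calls. The position rule itself separates these 2 groups by distance from start sites, so this contrast is only a description. The DNA replication-related element occurred at 0.621% of members, against 5.07% of strong promoter calls, 0.673% of weaker intergenic calls and 1.37% of all pooled calls. Motif 1, a core promoter word, occurred at 2 members (0.621%, interval 0.1705 to 2.236), against 2.69% of strong promoter calls. It was at 0.0885% of weaker intergenic calls and 0.570% of all pooled calls. Against weaker intergenic calls it was higher in 3 of 3 lists, and it is among the words counted as higher above. The strong intergenic calls of replicates 1, 2 and 4 had 0.3484%, 0.2353% and 0.3003%, against 0.08386%, 0.07686% and 0.07085% of weaker ones. These shares rest on very few calls, so the shared direction says little. In the lists of replicates 1, 2 and 4, the BEAF-32 core was at 17.8%, 18.4% and 21.9% of strong intergenic calls, against 33.5%, 31.8% and 30.8% of strong promoter calls. The forkhead site occurred at 12 members (3.73%, interval 2.14 to 6.40), near the 3.51% of weaker intergenic calls and the 4.77% of all pooled calls. Strong intronic calls had 7.65% and strong promoter calls 6.29%, and members were lower than each in 3 of 3 lists. The replicate lists gave 3.48%, 5.18% and 5.71%, against 8.90%, 8.05% and 6.55% of strong intronic calls (adjusted permutation p = 0.477).

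The Pho core was lower in members, at 28 of them (8.70%, interval 6.08 to 12.3), against 15.9% of weaker intergenic calls and 13.4% of all pooled calls. The lists gave 10.8%, 15.1% and 6.31% in replicates 1, 2 and 4, against 14.5%, 18.3% and 14.4%. Strong intronic and promoter calls had 8.01% and 8.14%. The part of base composition in this share and in those of the other words was not tested. The Zeste site (5.90% of members, 10.6% of weaker calls, 9.41% of all calls), the TEAD site (6.83%, 9.16% and 8.21%), the STAT site (4.04%, 5.21% and 5.44%) and the CA repeat (2.17%, 4.00% and 3.99%) were also lower in 3 of 3 lists. So was the E-box (CACGTG), at 1.86% of members, 2.09% of weaker calls and 2.22% of all calls. Homeodomain sites were lower in 3 of 3 lists but not in the pooled list (18.3% of members, 17.7% of weaker calls, 16.1% of all calls). The Zelda site was at 1.55% of members, 0.761% of weaker calls and 0.933% of all calls, and the GATA site at 9.01%, 8.04% and 9.13%, both higher in 3 of 3 lists. For the TEAD, STAT, homeodomain, Zelda and GATA sites, the CA repeat and the E-box, the interval of the members held the weaker share. Those pooled differences lie within counting error.

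**Figure D5:**
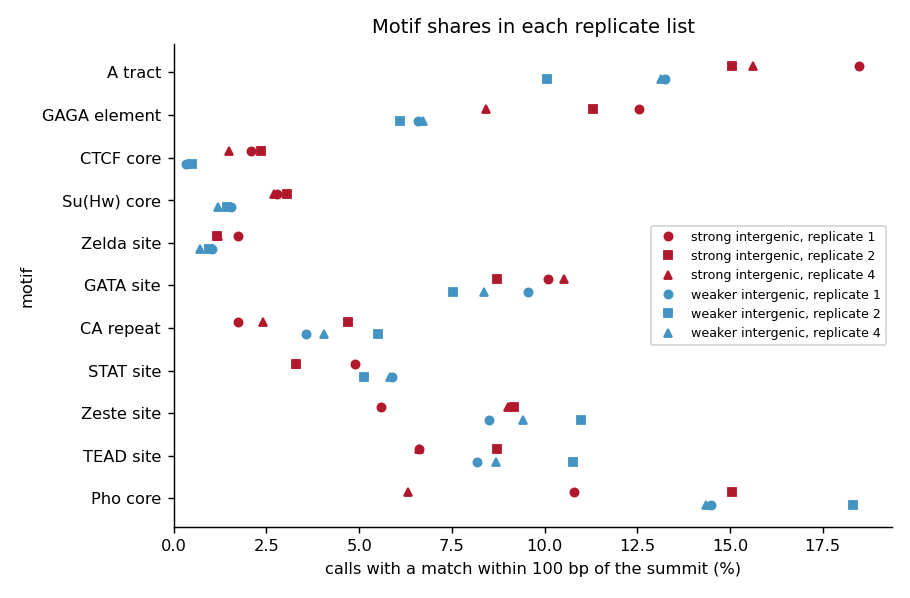
Share of calls with a motif match within 100 bp of the summit in the lists of replicates 1, 2 and 4, for strong intergenic calls (red) and weaker intergenic calls (blue) under the same rule. For the CTCF core and the Su(Hw) core, the red symbols all lie to the right of the blue ones; the Pho core is lower in strong calls within each replicate, at 10.8%, 15.1% and 6.31%, against 14.5%, 18.3% and 14.4%.

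An open scan of all 2080 words of 6 bases, counted with their reverse complements, was added after the data had been seen and has no test. In 23 words (1.11%) the share was higher by 5 points or more in strong than in weaker intergenic calls of all 3 lists, and in 2 words (0.0962%) it was lower by as much. Words rich in A and T were among the 23, with 5 made of A and T alone. Another 6 contained AGTG or its complement CACT. Of these, ACAGTG occurred in 18.3% of members, against 8.84% of weaker intergenic calls, and AGTGTA in 23.3%, against 11.8%. In replicates 1, 2 and 4 ACAGTG was at 16.0%, 16.5% and 16.5%, against 8.30%, 7.81% and 8.38%, and AGTGTA at 25.1%, 21.4% and 18.0%, against 11.8%, 8.59% and 10.8%. The strong calls of every list lay above the weaker calls of every list for both words, but the lists share regions and are not independent.

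ACAGTG was as common in strong calls elsewhere, at 20.4% of intronic and 18.8% of promoter calls, whereas AGTGTA was at 18.8% and 13.9%. Neither word was centred on the summit of members. Within 50 bp of it, ACAGTG was at 8.39% of members, and at 10.6% in the rest of the window, and AGTGTA at 11.2% and 14.3%. The words GGCCAA and TGGCCA were the 2 lower ones, at 7.14% and 5.59% of members, against 14.8% and 11.5% of weaker intergenic calls. How far base composition enters the shares of the 6-base words was not tested.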

How the data were processed

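The authors called peaks in each replicate and in the pool of the 3 replicates against 1 control alignment, per the deposited description of the lists, and each call carries the authors' signal value. No source used here gives the aligner, the peak caller or the depth. Signal was used only to rank calls within a list. Genes and start sites came from Ensembl release 115 on dm6, without transposable elements. RefSeq genes of the same assembly put 0 members in a gene or within 500 bp of a start site. Intervals are 95% Wilson intervals, cover counting error only and treat neighbouring calls as independent; the limit for a count of 0 is 3 counts of the total. Groups were compared over the replicate lists by an exact two-sided sign-flip permutation test, with Benjamini-Hochberg adjustment over the 21 motifs. Repeated sequence was counted as words of 36 bases found more than once. The text names the 20 strongest members, those at the limit, up to 3 on each gene list, and the one nearest CG10565; the groups near tara, scyl, Doc2 and chinmo were chosen after their values were seen. Members and lists were chosen with earlier results of these data known. Scripts used Python 3.11.15, numpy 2.4.6 and pandas 2.3.3.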

Additional observations from a re-analysis of the deposited data

How the results depend on the processing

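Of 261 values recomputed for 32 results, 4 turned their direction and 12 counts or shares with no test moved. The other 245 kept their direction, or stayed within the bounds set for a count or share, though many differences became smaller. Where all 3 lists had the same sign, leaving a replicate out could not turn the direction. Motifs were recomputed singly only for the 14 with the same direction against weaker intergenic calls in all 3 lists. The count of 245 was therefore in part fixed in advance. The number of members was 146 with the limit set to a smaller number of strong calls and 730 with 5000. Support by all 3 replicates was 16.8% with that smaller number of calls in each replicate and 54.0% with 5000, and 41.6% to 46.3% with each replicate left out, where support by the other 2 was asked for. The G and C difference from strong intronic calls turned to -0.0612 with fewer strong calls and -0.0718 with a start-site distance of 250 bp. The dip against strong promoter calls turned to 0.0615 with 250 bp and 0.41 with 1000 bp. The count of 6-base words that were higher depended on the setting: 45 with fewer strong calls, 5 with 5000, 3 with weaker calls only down to rank 10000 and 2 with a 50 bp window, and 31 to 41 with each replicate left out. With a 50 bp window the smallest difference in any list was 2.02 points for AGTGTA and 1.84 for ACAGTG, and with 5000 strong calls it was 3.75 for ACAGTG, so these no longer met the limit of 5 points. Among differences from weaker intergenic calls that kept their direction, the start-site distance was -231 bp with a limit of 1000 bp, the repeated share -0.0144 points with weaker calls to rank 10000, and the share on 3L 3.44 points with 5000 strong calls. The nearest gene's strong call gave 1.78 points with weaker calls to rank 10000. The GAGA element gave 0.573 points, the A tract 1.68 and the Pho core -2.22 with a 50 bp window. The Su(Hw) core gave 0.598 points with 5000 strong calls, and the CTCF core 0.727 and the GATA site 0.313 with a limit of 1000 bp. The share in gaps between genes pointing away from each other gave 4.27 points without replicate 1 and 0.398 without replicate 4, and the dip against strong promoter calls -1.53 without replicate 1 and -0.318 without replicate 2. The cause of these changes was not tested, except that fewer or more calls were taken. The choice of 3L, the dip, the nearest gene's strong call and the word scan are later additions, made with the data in view. Depth is unknown, and with 3 replicates the exact sign-flip test cannot give a p below 0.25.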
